A study of Mus musculus with 4 samples.

Results

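Glutathione transferases, the enzymes that join glutathione to reactive compounds, were followed through 12 cell types of the mouse duodenal crypt. The group was 9 genes of the 31053 in the count tables: Gsta1 and Gsta4 of the alpha class, Gstm1 and Gstm3 of the mu class, Gstp1 of the pi class, Gsto1 of the omega class, and the membrane-bound Mgst1, Mgst2 and Mgst3. They were picked by symbol, with the pattern of Gsta1 among the cell types and its genotype difference already known from these data, so levels by cell type are given as a description, with no test. All 9 were found in the files.

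Cytosolic transferases work in solution as pairs of subunits and attach glutathione to lipid peroxidation products, quinones and foreign compounds, which makes these easier to export. The microsomal enzymes belong to another protein family, which sits in membranes and also handles lipid peroxides and leukotrienes. Enterocytes of the small intestine are a known site of both, and many of the genes are known targets of the oxidative stress regulator NRF2.

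The study used single-cell RNA sequencing (10x Genomics 3' v3.1) of living duodenal crypt cells sorted for TOM, a red fluorescent protein made once Cre has acted. WT cells came from Atoh1CreER-T2;R26RTom mice and APC-KO cells from mice labelled Atoh1Cre;Apcfl/fl;R26RTom (the series' design text writes the CreER-T2 form for both), with 2 libraries for each genotype. Both genotypes received 2 doses of tamoxifen (1 mg/mL) 24 h apart and were harvested 12 h after the second. Cre was driven by Atoh1, the regulator of secretory cells, so the sort depended on that promoter, and the sources used here do not give the age or sex of the animals or the number behind a library. The p-values below therefore measure only the spread between these libraries, which may be technical.

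The authors kept 4814 and 3821 WT cells and 356 and 6243 APC-KO cells, with 3009636 to 27285079 unique molecular identifiers (UMIs, counts of captured transcripts) per library and medians of 3973 to 8370 UMIs per cell. APC-KO replicate 1 stood apart, with 5 to 184 cells per type and a median of 13, against 65 to 1281 in the other libraries. Of the 15234 kept cells, 20 barcodes occurred in more than 1 library. Marker genes ranked first among the 12 types in all 4 libraries for 8 of the 11 types with a marker list. SEC-PRO ranked 2 or 3, with GP first, and GOBLET-PRE and PANETH-PRE ranked 2, behind GOBLET and PANETH. No markers were listed for GP. Summed stromal markers reached at most 2.32 CPM in any type and library, immune markers 37.1, endothelial markers 31.9 and red cell markers 205. CPM is UMIs per 1000000 UMIs of that cell type in that library. Fewer cells carrying a transcript and less transcript per cell cannot be told apart in such sums.

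The 9 genes divided into sets with different cell types at the top. In WT, ENTERO-PRO was the highest of the 12 types for 5 of 9 genes (Gstm3, Gstp1, Gsto1, Mgst1 and Mgst2). It was also the type highest for the sum of its listed markers, with the enterocyte genes Fabp1, Apoa1 and Alpi among them. GOBLET was highest for both alpha genes, TUFT for Mgst3 and EEC-PRE for Gstm1. PANETH was lowest for 4 genes (Gstm1, Gstp1, Mgst2 and Mgst3). The share of all genes with the same highest or lowest type was not computed.

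**Figure D1:**
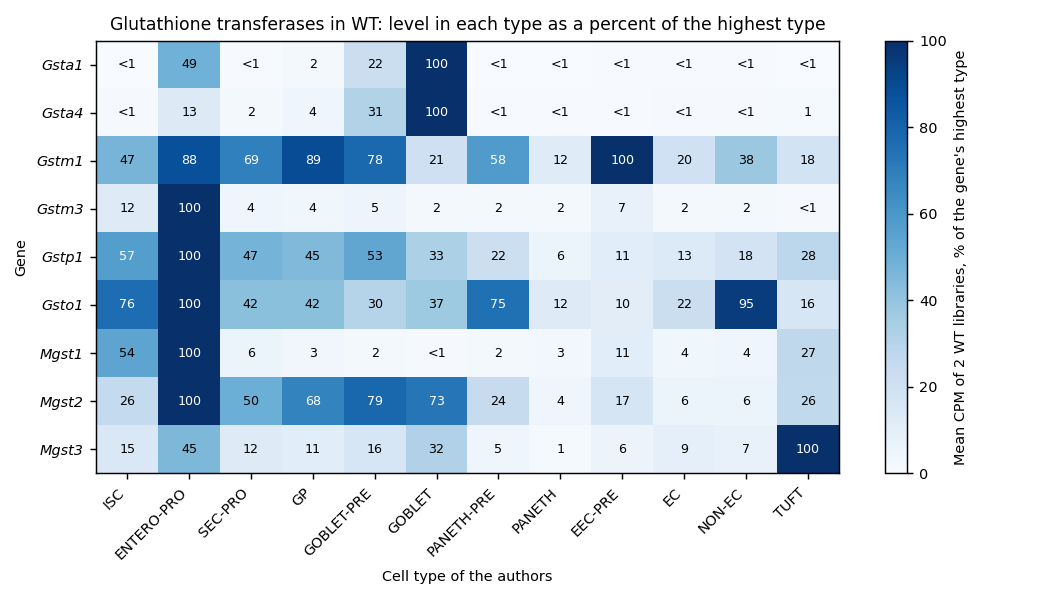
Level of each of 9 glutathione transferases (rows) in each of 12 cell types (columns) as a percent of the gene's highest type, from the mean CPM of the 2 WT libraries. The alpha genes are concentrated in GOBLET, Gstm3 and Mgst1 in ENTERO-PRO and Mgst3 in TUFT, while Gstm1 is at 50% or more of its highest level in 6 types.

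**Figure D2:**
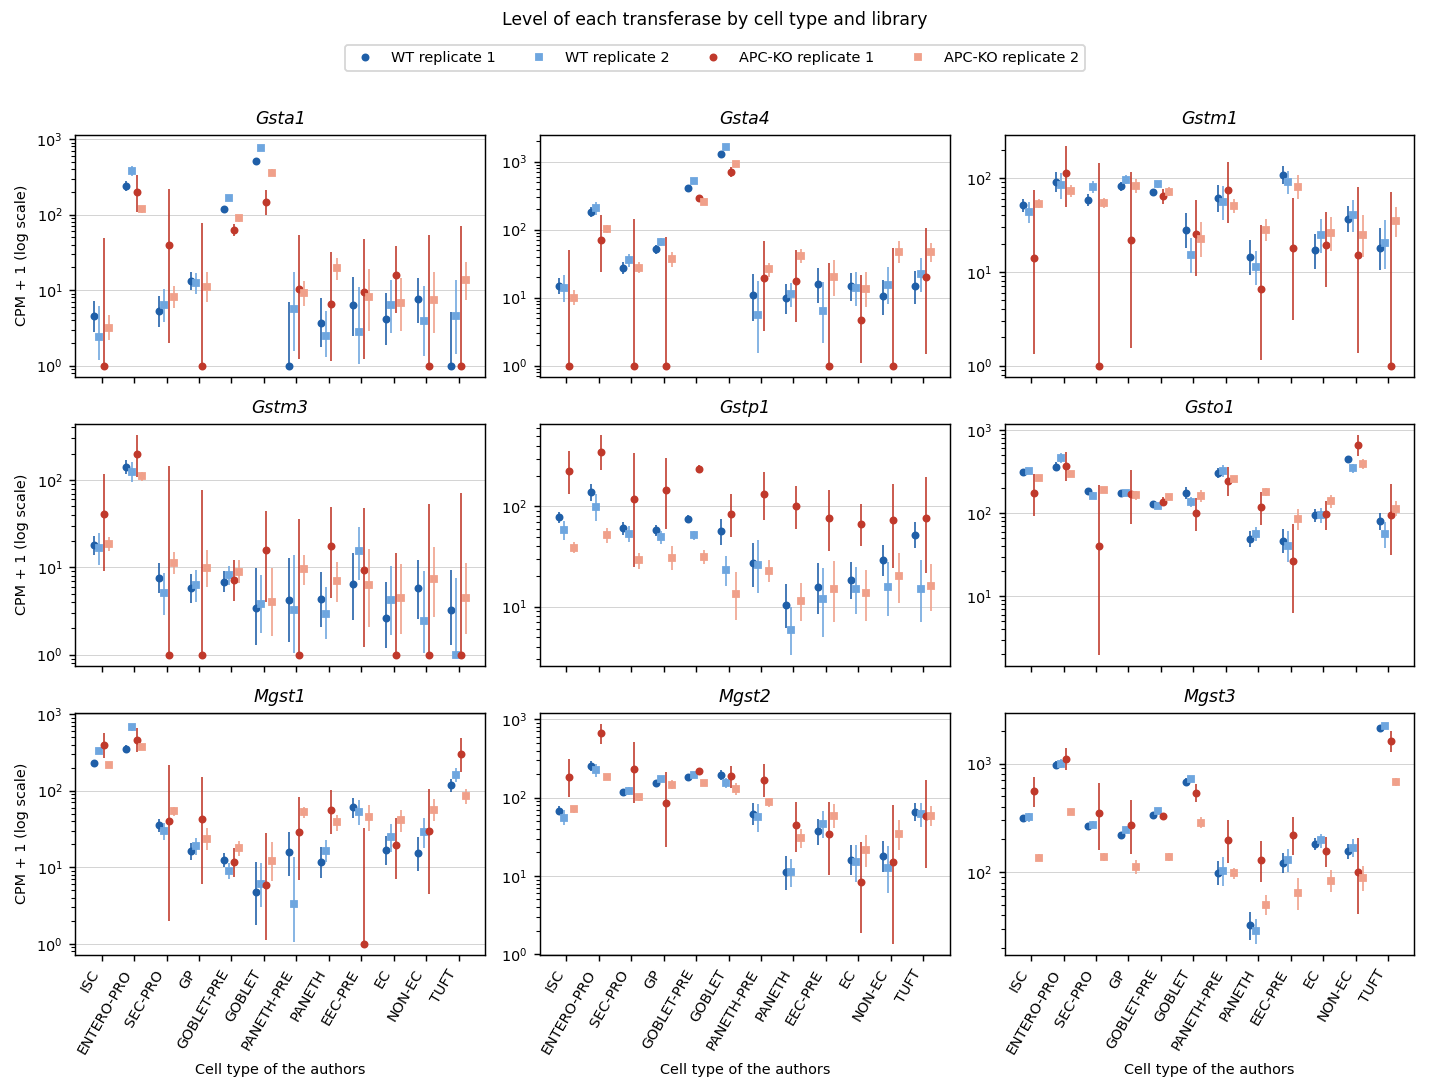
CPM + 1 on a log scale for each gene (panels) by cell type, with 1 point per library. Bars are exact Poisson 95% intervals of the UMI count, which cover counting error only, and they are widest in APC-KO replicate 1, which has the fewest cells.

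Gsta1 (ENSMUSG00000074183, GRCm38 chr9:78230656-78242684, plus strand, protein coding) encodes an alpha class subunit that reduces lipid hydroperoxides. In GOBLET it reached 504 and 772 CPM in the WT libraries, with 147 and 356 in the APC-KO libraries. In ENTERO-PRO it was at 237 and 382 CPM in the WT libraries, with 197 and 116 in the APC-KO libraries, and in GOBLET-PRE at 117 and 163 CPM in the WT libraries, with 62.3 and 87.9 in the APC-KO libraries. In GOBLET and GOBLET-PRE both APC-KO libraries were below both WT libraries, which also held for 14.4% of 5974 and 30.6% of 10272 genes tested there. In ENTERO-PRO the value of APC-KO replicate 1 was 14 UMIs from 11 cells, with an interval of 108 to 330 CPM that covers WT replicate 1.

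Outside these 3 types Gsta1 was close to absent: the WT means ran from 1.77 CPM in TUFT to 11.9 CPM in GP. The WT mean in GOBLET was 141-fold that of the median type. The WT libraries kept the 4 leading types apart from each other, whereas the 8 types below GP overlapped their neighbours. Barcodes with 1 to 50 UMIs, which hold mostly RNA from outside cells, carried Gsta1 at 60.5 to 83.1 CPM, above its level in the 9 lowest types, and the part of free RNA in those types was not tested. With every cell thinned to 2000 UMIs, Gsta1 was seen in 49.1% and 66.3% of WT GOBLET cells and in 33.3% and 39.6% of APC-KO GOBLET cells. In PANETH, a type that should lack a goblet gene, the shares were 0% and 0% in WT and 6.25% and 3.65% in APC-KO. For 106 and 200 cells, 0% allows up to 2.83% and 1.5% of cells with a UMI seen at that depth. Unthinned shares and median depths in GOBLET were 70.6%, 81.5%, 64.3% and 58.6% at 4904, 5252, 6906 and 3624 UMIs per cell, and in PANETH they were 2.83%, 1.5%, 6.25% and 8.39% at 12644, 10372, 3552 and 5954 UMIs per cell.

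Gsta4 (ENSMUSG00000032348, chr9:78182774-78209349, plus strand) encodes the alpha class enzyme best known for conjugating 4-hydroxynonenal, a lipid peroxidation product. In GOBLET it was at 1289.6 and 1651 CPM in the WT libraries, with 700.3 and 921 in the APC-KO libraries, and in GOBLET-PRE at 408 and 512 CPM in the WT libraries, with 295 and 255 in the APC-KO libraries. ENTERO-PRO held 183 and 204 CPM in the WT libraries, with 70.3 and 101 in the APC-KO libraries. Thus Gsta4 shared its 3 leading types with Gsta1 but had GOBLET-PRE before ENTERO-PRO, the reverse of Gsta1. In WT, GP followed these 3 types for both genes. In the other types the WT mean of Gsta4 was 7.16 to 30.5 CPM, against 74.0 to 163 CPM in the low-UMI barcodes.

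The genes whose profile over the 12 types was most like that of Gsta1 (Pearson r of log2(CPM + 10) in the pooled WT libraries, among 5652 genes with at least 50 CPM in some type) were Clec2h (0.99), Cdkn2b (0.98) and Gsta4 (0.96). For Gsta4 they were Zg16 (0.98), a goblet cell lectin, Fam3b (0.98) and Apol7a (0.98). Each of these correlations has 12 points that share the same libraries. The near copy Gsta2 was almost unread, with at most 0.806 CPM over all kept cells of any library. The last 300 bases of the Gsta1 and Gsta2 transcripts match at 94.3%, so reads from them may be split or dropped by the counting.

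Gstm1 (ENSMUSG00000058135, chr3:108012255-108017973, minus strand) encodes a mu class subunit with broad activity on electrophiles. It was the most evenly spread of the 9 genes by the ratio of the highest to the lowest type, which was 8.34 in WT. EEC-PRE held 108 and 90.0 CPM in the WT libraries, with 16.8 and 80.4 in the APC-KO libraries. GP held 80.5 and 95.3 CPM in the WT libraries, with 20.9 and 82.1 in the APC-KO libraries, and ENTERO-PRO held 90.9 and 82.5 CPM in the WT libraries, with 112 and 71.3 in the APC-KO libraries. The first 5 types in the order (EEC-PRE, GP, ENTERO-PRO, GOBLET-PRE and SEC-PRO) and PANETH-PRE after them each overlapped their neighbours, so no type led beyond the spread of the 2 libraries. The low-UMI barcodes held Gstm1 at 57.9 to 101 CPM, and only ENTERO-PRO was above those of its own library in all 4 libraries. Mature GOBLET had only 27.1 and 14.2 CPM in the WT libraries, with 24.5 and 21.4 in the APC-KO libraries, below GOBLET-PRE (69.9 and 84.9 CPM in the WT libraries, with 63.4 and 70.5 in the APC-KO libraries) in every library. PANETH likewise was below PANETH-PRE in every library. Tmem97 (r = 0.88), Aup1 (0.88) and Rpl10-ps3 (0.86) had the most similar profiles.

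Gstm3 (ENSMUSG00000004038, chr3:107963696-107969283, minus strand) lies in the same cluster of mu genes and had the largest step from ENTERO-PRO to the next type among the 5 genes led by it. ENTERO-PRO held 141 and 124 CPM in the WT libraries, with 197 and 109 in the APC-KO libraries. ISC, the type highest for summed stem cell markers, Lgr5 and Olfm4 among them, came next. It held 16.9 and 15.6 CPM in the WT libraries, with 39.6 and 17.4 in the APC-KO libraries. ENTERO-PRO was 8.14-fold over ISC in WT, and the remaining 10 types had WT means of 1.14 to 9.89 CPM. The low-UMI barcodes held 20.8 to 52.3 CPM, and every type but ENTERO-PRO, ISC included, was below those of its own library in at least 1 WT library. Ugt2a3 (0.99), a glucuronosyltransferase, Smlr1 (0.98) and Mall (0.97) had the most similar profiles. Gstm1 and Gstm3, although in the same cluster, had profiles correlated at 0.49 over the 12 types.

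The coding sequences of Gstm1 and Gstm3, both 657 bases long, match at 89.5%, and the aligned part of their transcript ends at 89.3%. The stretch of 60 coding bases with the most differences is shown to let the 2 genes be told apart, with differing bases in capitals (GENCODE vM21 transcripts, coding bases 595 to 654).
Gstm1: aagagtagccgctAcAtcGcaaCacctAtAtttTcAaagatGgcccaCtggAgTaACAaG
Gstm3: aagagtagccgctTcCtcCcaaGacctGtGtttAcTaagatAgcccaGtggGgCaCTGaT
These copies differ at 16 of the 60 bases.

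Gstp1 (ENSMUSG00000060803, chr19:4035407-4037985, minus strand) encodes the pi class enzyme, often studied in proliferating and transformed epithelium. In ENTERO-PRO it was at 137 and 97.7 CPM in the WT libraries, with 351 and 50.6 in the APC-KO libraries, and in ISC at 77.0 and 56.8 CPM in the WT libraries, with 224 and 37.8 in the APC-KO libraries. PANETH held 9.49 and 4.83 CPM in the WT libraries, with 99.5 and 10.3 in the APC-KO libraries. ENTERO-PRO was separate from ISC in WT, but 9 of the 11 pairs of neighbouring types overlapped. Gpx1 (0.98), the cytosolic glutathione peroxidase, Rer1 (0.96) and Cryl1 (0.96) had the most similar profiles.

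The neighbouring gene Gstp2 is a near-identical copy. Its coding sequence of 633 bases differs from that of Gstp1 at 12 bases, and the last 300 bases of the 2 transcripts, where 3' chemistry reads, are 100% identical. The first 60 coding bases, which hold 6 of those 12 differences, are shown as a stretch that tells the copies apart (capitals mark differing bases).
Gstp1: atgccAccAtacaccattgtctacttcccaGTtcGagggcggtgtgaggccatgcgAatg
Gstp2: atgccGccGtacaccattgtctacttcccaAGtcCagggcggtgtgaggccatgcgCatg
Reads from the transcript end cannot place a molecule in one copy or the other, so they may be split or dropped by the counting. Every value of Gstp1 is therefore uncertain, by an amount not known here. Gstp2 was read at 4.29 to 38.9 CPM over all kept cells.

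Gsto1 (ENSMUSG00000025068, chr19:47854970-47864790, plus strand, overlapping Cfap43 on the other strand) encodes the omega class enzyme, which acts mainly as a thiol transferase and reduces dehydroascorbate. ENTERO-PRO held 361 and 465 CPM in the WT libraries, with 366 and 294 in the APC-KO libraries. NON-EC, the type highest for summed hormone genes (Cck, Gcg, Gip and Sst among them), held 442 and 345 CPM in the WT libraries, with 657 and 388 in the APC-KO libraries. These led in 1 WT library each and overlapped. ISC followed, and then PANETH-PRE with 304 and 318 CPM in the WT libraries, with 243 and 257 in the APC-KO libraries. PANETH was far below PANETH-PRE, at 48.1 and 55.1 CPM in the WT libraries, with 116 and 178 in the APC-KO libraries. EEC-PRE was the lowest type in WT at 42.7 CPM, next to 393 CPM in NON-EC. Galm, Hexa and H2-Ab1 (each r = 0.84) were the most similar genes, a weaker likeness than for any other of the 9.

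Mgst1 (ENSMUSG00000008540, chr6:138140316-138156755, plus strand) encodes the microsomal transferase of the endoplasmic reticulum and outer mitochondrial membrane. ENTERO-PRO held 352 and 669 CPM in the WT libraries, with 464 and 370.3 in the APC-KO libraries, and ISC held 227 and 326 CPM in the WT libraries, with 396 and 214 in the APC-KO libraries. TUFT, the type highest for summed tuft markers (Dclk1 and Trpm5 among them), followed at 116 and 159 CPM in the WT libraries, with 303 and 83.4 in the APC-KO libraries. The WT libraries separated these 3 types, EEC-PRE and SEC-PRO from each other. GOBLET, the type where the alpha genes were highest, was lowest, at 3.7 and 4.95 CPM in the WT libraries, with 4.90 and 11.2 in the APC-KO libraries. Over the 12 types Mgst1 had r = -0.16 with Gsta4 and -0.00714 with Gsta1. Lad1 (0.96), Ptges2 (0.94) and Prlr (0.94) had the most similar profiles.

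NRF2 binds the antioxidant response element, searched here as TGACNNNGC on both strands in the 250 bases before each RefSeq transcript start (GRCm38.p6). The motif was found before 10.2% of 32851 starts. Of the 8 members with a sequence in the table, only Mgst1 had a match, at 1 of its 2 starts and 56 bases before it, shown here at chr6:138140461-138140489 on the plus strand with the match (minus-strand orientation) in capitals.
Mgst1: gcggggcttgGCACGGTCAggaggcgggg
A match is a description of these letters, and no match says only that they were not in this window.

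Mgst2 (ENSMUSG00000074604, chr3:51660360-51682677, plus strand) encodes a microsomal enzyme that can also make leukotriene C4. Its WT order opened with ENTERO-PRO at 256 and 221 CPM in the WT libraries, with 661 and 184 in the APC-KO libraries. GOBLET-PRE followed with 185 and 191 CPM in the WT libraries, with 217 and 153 in the APC-KO libraries, and GOBLET with 195 and 153 CPM in the WT libraries, with 186 and 128 in the APC-KO libraries. GOBLET-PRE, GOBLET and GP overlapped one another in sequence, so their order was not beyond the spread of the 2 libraries. EC (15.2 and 13.9 CPM in the WT libraries, with 7.32 and 20.5 in the APC-KO libraries), NON-EC and PANETH formed the bottom in WT at 10.2 to 14.5 CPM. Adgrg7 (0.98), Lgals4 (0.97), an intestinal galectin, and Specc1 (0.96) were the most similar genes.

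Mgst3 (ENSMUSG00000026688, chr1:167371966-167393841, minus strand) encodes a microsomal enzyme with peroxidase activity on lipid peroxides. TUFT held 2144 and 2199.8 CPM in the WT libraries, with 1609 and 677 in the APC-KO libraries, and ENTERO-PRO held 976 and 997 CPM in the WT libraries, with 1111 and 356 in the APC-KO libraries. GOBLET came next with 673 and 716 CPM in the WT libraries, with 539 and 284 in the APC-KO libraries. All 11 neighbouring pairs of types were separate in the 2 WT libraries, which gave the same order from TUFT to PANETH. With cells thinned to 2000 UMIs, 98.1% and 95.8% of WT TUFT cells and 100% and 69.8% of APC-KO TUFT cells had a UMI of Mgst3. The share in PANETH was 7.55%, 5%, 50% and 7.66%. Unthinned, TUFT shares and median depths were 98.3%, 99.2%, 100% and 81.9% at 3879, 4643, 6934 and 2676 UMIs per cell, and those of PANETH were 33.0%, 22.0%, 68.8% and 20.4% at 12644, 10372, 3552 and 5954 UMIs per cell. Efhd2, Ostf1 and Mocs2 (each 0.94) were the most similar genes.

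The order of the types was also read with the main secretory products left out. Defensins, other Paneth products and goblet products took 59.9% and 57.5% of all UMIs in WT PANETH, 41.8% and 45.7% in GOBLET and at most 21.9% in any other WT type. With those genes left out of the total, a choice made after seeing the data, PANETH stayed lowest for Mgst3 (71.3 CPM) but not for Gstm1, Gstp1 and Mgst2, where it ranked 10. GOBLET then led for Mgst2 (308 against 245 CPM in ENTERO-PRO), and the other 8 genes kept their leading type.

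Single libraries often lay at an end of the 4 values, most often for Gstp1 and Mgst3. Gstp1 was highest in APC-KO replicate 1 in 12 of 12 cell types, with a median ratio of 3.81 to the mean of the other 3 libraries, and only 0.150% of 6001 genes with at least 20 CPM were highest in that library in all 12. The low-UMI barcodes of the same library showed a ratio of 4.33, and Gstp2 was also highest there (38.9 CPM against 8.71, 6.76 and 4.29). APC-KO replicate 2 was lowest for Gstp1 in 8 of 12 types, so that the 2 APC-KO libraries lay on opposite sides of WT there. Of the 6001 genes, 4.80% were lowest in that library in at least as many types.

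Mgst3 stood apart in the other APC-KO library. APC-KO replicate 2 was the lowest of 4 in 11 of 12 cell types, with a median ratio of 0.448, and 0.400% of the 6001 genes were lowest there in as many types. Its low-UMI barcodes were at 0.563 of the others. APC-KO replicate 1 was highest for Mgst3 in 7 types, and 5.48% of the 6001 genes were highest there in at least as many. Kept cells and low-UMI barcodes of a library thus differed in the same direction for both genes, and the part of free RNA was not tested. Library and animal cannot be told apart here. APC-KO replicate 1 was the lowest library in 8 of 12 types for Gsta4 (median ratio 0.357) and for Gstm1 (0.379), as were 15.1% of the 6001 genes in at least as many. Gsta4 had no UMI there in ISC, SEC-PRO, GP, EEC-PRE and NON-EC, which held 5 to 15 cells each. APC-KO replicate 2 was the highest in 7 for Gstm3 (1.69), against 14.4% of genes.

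**Figure D3:**
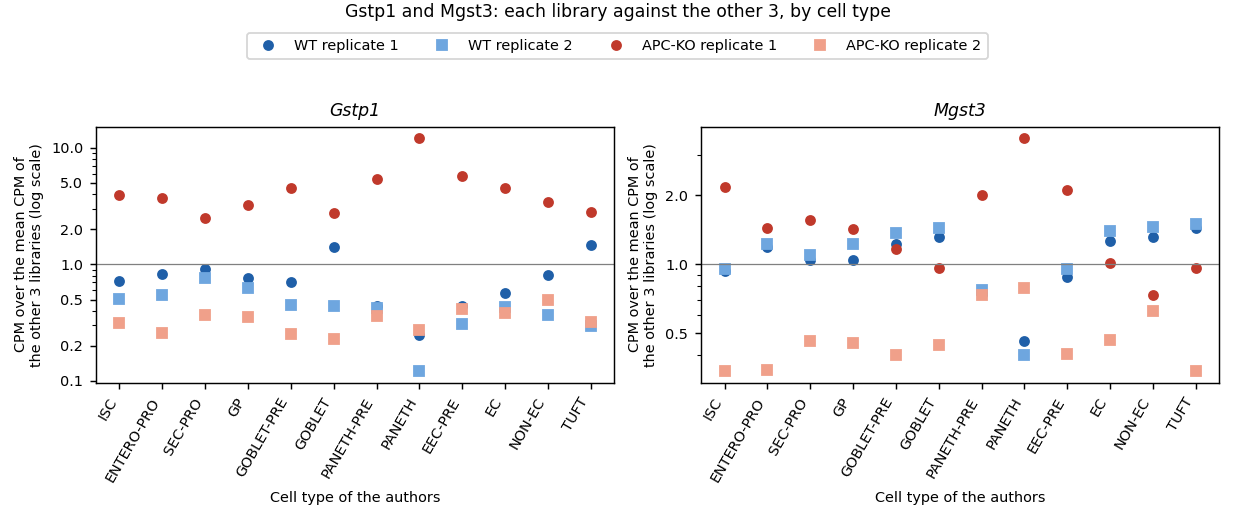
Ratio of each library's CPM to the mean CPM of the other 3 libraries (log scale) for Gstp1 and Mgst3 in each of 12 cell types. Gstp1 in APC-KO replicate 1 lies above 1 in every type, with a median of 3.81, and Mgst3 in APC-KO replicate 2 lies below 1 in every type, with a median of 0.448.

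Genotypes were compared by edgeR's quasi-likelihood test on summed UMIs, APC-KO against WT, with p-values adjusted over all genes tested (Benjamini-Hochberg) and called under 0.05. Over all kept cells none of the 9 genes was called, beside 0% of 13345 genes, and 1 of 9 had an unadjusted p under 0.05 (3.71% of all genes): Gstm3, at a log2 difference of 0.80 (SE 0.27). The mix of types moved with it: ENTERO-PRO, the main site of Gstm3 and Mgst1, was 2.41% and 1.70% of kept cells in WT and 3.09% and 7.50% in APC-KO. ISC was 11.9% and 5.97% in WT, with 3.65% and 19.9% in APC-KO. Within ENTERO-PRO the genotypes overlapped for both genes, and the part of the cell mix in the sums was not tested. In EC, 0 of the 7 genes tested and 0% of 8690 were called, with 1 of 7 at an unadjusted p under 0.05 against 8.39% of all genes. That gene was Mgst3, at -0.74 (SE 0.27). DESeq2's Wald test also called none of the 9 in either. Where a library was left out, its genotype kept 1 library, which was assumed to vary like the 2 of the other genotype, so calls made that way describe the remaining library. Without APC-KO replicate 1, the differences over all kept cells were 1.01 for Gstm3, 0.91 for Mgst1 and -1.12 for Mgst3. In EC that of Mgst3 was -1.15. Without APC-KO replicate 2, Gstp1 was at 2.11 over all kept cells and at 2.11 in EC.

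In GOBLET and GOBLET-PRE both alpha genes were lower in both APC-KO libraries than in both WT libraries, but not past the threshold (the shares of all genes doing so, 14.4% and 30.6%, stand with Gsta1 above). In GOBLET the edgeR differences were -1.42 (SE 0.39) for Gsta1, given as a description, -1.01 (SE 0.30, adjusted p = 0.290) for Gsta4 and -0.98 (SE 0.31, adjusted p = 0.297) for Mgst3. None of 7 genes tested was called, beside 0.0837% of 5974 (0.0335% higher and 0.0502% lower), and 3 of 7 had an unadjusted p under 0.05, a level that 11.2% of all genes reached. Gstm3 and Mgst1 had too few UMIs there to be tested. GOBLET cells of APC-KO replicate 1 also stood apart in dissociation stress genes (1503 CPM, against 263 and 306 in WT and 386 in APC-KO replicate 2) and in median mitochondrial share (4.63%, against 2.31%, 2.10% and 2.17%), whose part in these values was not tested. In GOBLET-PRE the values were -0.76 (SE 0.20) for Gsta1 and -0.62 (SE 0.20) for Gsta4, the 2 of 9 with an unadjusted p under 0.05 (7.95% of all genes), and 0 of 9 were called against 0.00974% of 10272. DESeq2 called none of the 9 in these 2 types. Without a filter on low counts Gstp1 (1.14) was called in GOBLET-PRE, as were 280 of 15920 genes. The values of Gsta1 without that filter, again a description, were -1.47 and -0.79. Without APC-KO replicate 1, Mgst3 was at -1.29 in GOBLET-PRE, from the library that was its lowest in 11 of 12 types.

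In the Paneth lineage (PANETH and PANETH-PRE summed) the fitted difference was positive for 9 of 9 genes, Gsta1 included, with a median of 0.86, against a median of 0.00 over all 8599 genes tested. The median mitochondrial share of these cells was 2.08% and 1.69% in WT and 3.60% and 3.41% in APC-KO, and summed enterocyte markers came to 336 and 296 CPM in WT, against 1221 and 612 in APC-KO. PANETH-PRE gave 616065 of 2091897 and 437081 of 2506997 lineage UMIs in WT. In APC-KO it gave 107204 of 288181 and 2720248 of 4565088, a larger part in both libraries. In PANETH-PRE cells alone the direction turned for 2 of 6 genes tested (Gstm1 and Gsto1), and in PANETH cells alone for 0 of 7. The part of these measures or of the mix in the differences was not tested. In the lineage sum none of the 9 genes was called, beside 0.663% of all genes (0.244% higher and 0.419% lower). Of the 9, 4 had an unadjusted p under 0.05, against 14.8%. Mgst1 came nearest. It was at 12.0 and 13.2 CPM in the WT libraries, with 45.1 and 45.6 in the APC-KO libraries, a log2 difference of 1.15 with SE 0.27 (edgeR, adjusted p = 0.0784). All of these levels lay below those of the low-UMI barcodes (107 to 153 CPM), and the part of free RNA was not tested. Both APC-KO libraries were above both WT libraries, as were those of 48.5% of all genes tested. The other 3 were Gsta1 (1.81, SE 0.50, on 4, 5, 2 and 56 UMIs in the 4 libraries), Gsta4 (0.95, SE 0.27) and Mgst2 (1.05, SE 0.32). Without APC-KO replicate 1, Mgst1 was at 1.02. Mgst1 was called in PANETH-PRE cells alone (2.25), as were 85 of 5568 genes, on 10 UMIs in WT and 142 in APC-KO. APC-KO replicate 1 had 11 cells there, and its level of 28.0 CPM was that of 3 UMIs. Mgst1 was also called without a filter on low counts (1.14), as were 477 of 15042 genes. After subtraction of free RNA it was called (1.79), as were 124 of 8369. Mgst2 was also called without the filter (1.03). Gsta4 was called after the subtraction (2.70), which took an assumed 5% of each sum and began from 19, 23, 5 and 142 UMIs. When APC-KO replicate 2 was left out, the values were 3.07 for Gstp1, 1.84 for Mgst2 and 1.52 for Mgst3, on the 27 Paneth lineage cells of APC-KO replicate 1. DESeq2's Wald test called 0 of the 9, and gave no adjusted p for 8002 of the 8599 genes.

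**Figure D4:**
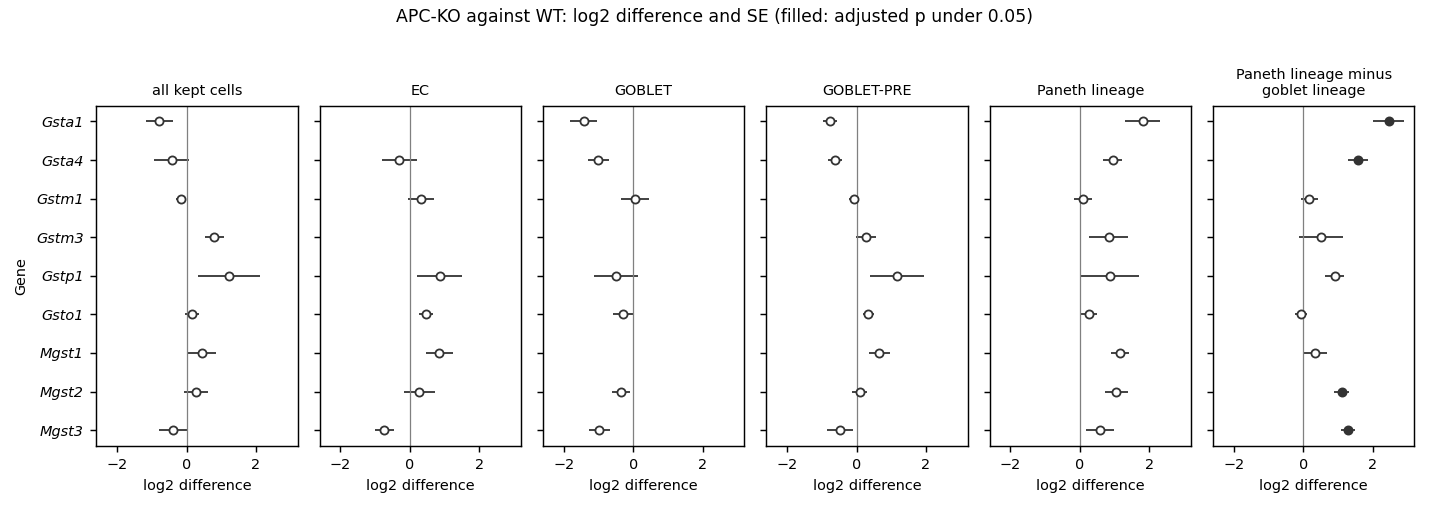
Log2 difference between APC-KO and WT with its SE for each of 9 genes in 5 comparisons, and in the last panel the difference of that difference between the Paneth and goblet lineages. Filled points have an adjusted p under 0.05 in edgeR, which holds for 4 genes in the last panel only. Of these 4, Gsta1 was chosen with its difference known. Genes with too few UMIs are left out.

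For Gsta4, Mgst2 and Mgst3 the genotype difference was not the same in the 2 secretory lineages, and Gsta1 is set apart below. The model kept each library as a block and tested whether the ratio of the Paneth lineage to the goblet lineage (GOBLET and GOBLET-PRE summed) differed between genotypes. Gsta4, Mgst2 and Mgst3 were called among the 8 genes other than Gsta1, all with a higher ratio in APC-KO, beside 0.740% of 10265 genes called higher, 1.52% lower and 2.26% in either direction. An unadjusted p under 0.05 was reached by 5 of 9, against 12.0% of all genes. Gsta1 also passed the threshold, but it was chosen with this difference known, and its value (2.46, SE 0.44) is a description here. The Paneth lineage sum was also chosen with earlier results of these data known. Gsta4 followed Gsta1 in profile over the 12 types (r = 0.96), so its call is not independent of that choice.

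Gsta4 in the Paneth lineage was at 1.80% and 1.30% of its goblet lineage level in the WT libraries and at 5.15% and 8.33% in the APC-KO libraries. Its log2 interaction was 1.57 (SE 0.29, edgeR, adjusted p = 2.46e-04). Mgst2 stood at 13.6% and 9.71% in WT and at 42.2% and 42.6% in APC-KO (1.11, SE 0.22, adjusted p = 8.74e-04). Mgst3 stood at 13.6% and 9.54% in WT and at 44.0% and 47.4% in APC-KO (1.30, SE 0.20, adjusted p = 1.20e-05). For each of these 3 genes both APC-KO libraries lay above both WT libraries. Gstp1 had 19.9% and 18.3% against 50.6% and 62.8% and missed the threshold (0.90, SE 0.27, adjusted p = 0.0593). Gstm1, Gstm3, Gsto1 and Mgst1 were at 0.18, 0.51, -0.08 and 0.33.

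The unscaled ratio was higher in both APC-KO libraries than in both WT libraries for 9 of 9 genes, and for 50.6% of 10125 genes, while it was lower in both for 2.41% of genes. The fitted values are relative to that shift, with a median of 0.00 over all genes.

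The levels behind these ratios differed by gene. For Gsta4 the goblet lineage was at 503 and 704 CPM in the WT libraries, with 337 and 373 in the APC-KO libraries, and the Paneth lineage at 9.08 and 9.17 CPM in the WT libraries, with 17.4 and 31.1 in the APC-KO libraries. Both APC-KO libraries were below both WT libraries in the goblet lineage, as for 28.7% of genes, and above them in the Paneth lineage, as for 48.5%. For Mgst2 the goblet lineage overlapped between genotypes at 186 and 185 CPM in the WT libraries, with 214 and 149 in the APC-KO libraries, whereas the Paneth lineage did not, at 25.3 and 17.9 CPM in the WT libraries, with 90.2 and 63.5 in the APC-KO libraries. For Mgst3 the goblet lineage was at 373 and 422 CPM in the WT libraries, with 347 and 163 in the APC-KO libraries, and the Paneth lineage at 50.7 and 40.3 CPM in the WT libraries, with 153 and 77.3 in the APC-KO libraries. The high APC-KO value of Mgst3 in the Paneth lineage was replicate 1 and the low one in the goblet lineage was replicate 2, the 2 libraries that differed for this gene in most types. In every library the Paneth lineage levels of these genes lay below those of the low-UMI barcodes. Those barcodes held Gsta4 at 74.0 to 163 CPM, Mgst2 at 100 to 191 and Mgst3 at 202 to 402. The part of free RNA in the Paneth lineage levels was not tested.

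**Figure D5:**
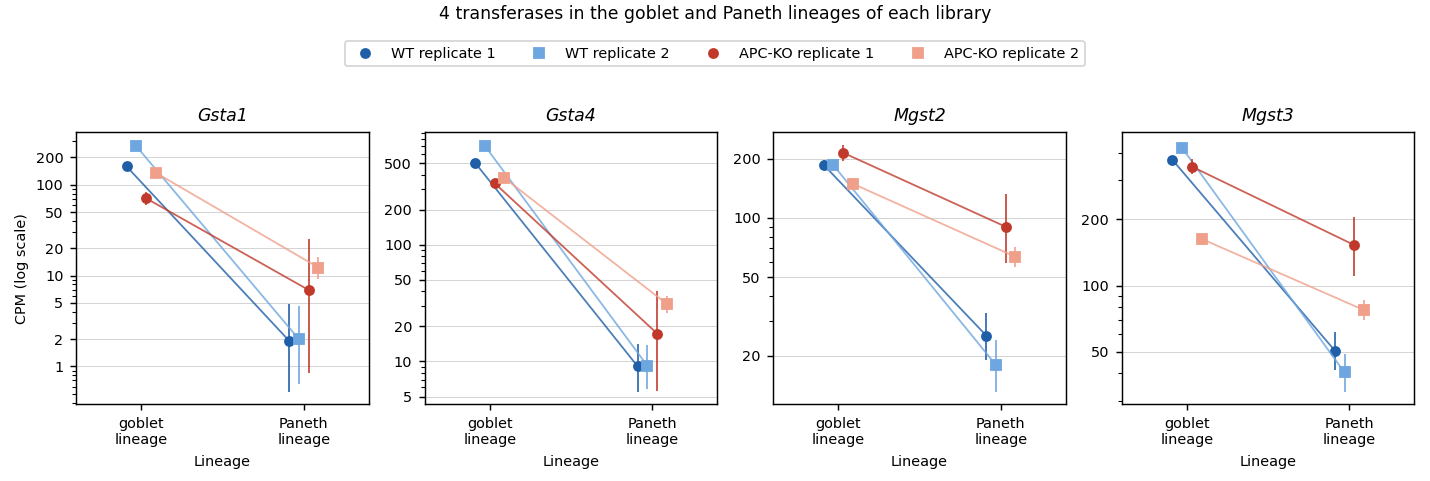
CPM (log scale) of 4 genes in the goblet and Paneth lineages of each library, with exact Poisson 95% intervals and a line joining the lineages of 1 library. The lines of the 2 APC-KO libraries fall less steeply from the goblet to the Paneth lineage than those of the 2 WT libraries for each gene. For Mgst2 the Paneth lineage is at 42.2% and 42.6% of the goblet lineage in APC-KO and at 13.6% and 9.71% in WT.

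Mgst3 was called without each library in turn (adjusted p at most 0.0432) and by DESeq2 (adjusted p = 9.67e-03). Gsta4 was lost without WT replicate 2 (1.33, adjusted p = 0.138) and without APC-KO replicate 2 (1.41, adjusted p = 0.584), and with cells thinned to 2000 UMIs (1.65, adjusted p = 0.221). Mgst2 was lost without WT replicate 2 (0.93), by DESeq2 (1.18, adjusted p = 0.0950) and with thinned cells (0.51, adjusted p = 0.925). With a replicate block in place of the library block, none of the 9 genes was called. The labels give no pairing of the libraries, and in that fit the 2 sums of a library are no longer matched.

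Other measures moved with the same samples. Goblet markers took 4.62% and 2.50% of Paneth lineage UMIs in WT and 5.89% and 7.58% in APC-KO, with all 7 markers seen in each library, and defensins took 35.4% and 35.8% against 29.9% and 15.0%. The enterocyte markers and mitochondrial shares are those given above for the Paneth lineage. The share of PANETH-PRE among Paneth lineage cells was 53.5%, 32.9%, 40.7% and 68.7%. By UMIs, which weigh the sums, it was larger in both APC-KO libraries than in both WT libraries, as given above. Mgst2 in WT was at 58.3 CPM in PANETH-PRE and 10.2 in PANETH. Mgst3 was at 99.0 and 29.4 there, and Gsta4 at 7.16 and 9.48. The part of goblet RNA, enterocyte RNA or the mix of the 2 Paneth types in the result was not tested. With free RNA subtracted at an assumed 5% of each sum, all 3 were called, at 3.35 for Gsta4, 1.36 for Mgst2 and 1.73 for Mgst3. That fit called 5 of the 9 genes, against 4 in the main fit, beside 319 of 10127 genes. Before the subtraction, Gsta4 had 19, 23, 5 and 142 UMIs in the Paneth lineage. A fixed share takes proportionally more from levels far below the low-UMI barcodes, as for Gsta4 in WT (9.08 and 9.17 against 111 and 163 CPM). How far the values depend on that share was not tested. APC-KO replicate 1 had only 16 PANETH and 11 PANETH-PRE cells, so each lineage stage alone is thinly filled. Within mature cells alone (PANETH against GOBLET), Mgst3 (1.76) was called and Gsta4 (2.03) and Mgst2 (1.4) were not. In that fit 3 of the 9 genes were called, 1 of them not called in the main fit, beside 49 of 7730 genes. Within the precursors alone, Gsta4 (2.28, on 6, 2, 2 and 68 UMIs in PANETH-PRE) and Mgst3 (1.05) were called and Mgst2 (0.75) was not. That fit called 91 of 9777 genes.

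The rest of the glutathione system was read from a list of 68 genes, of which 64 were in the files and 63 had a UMI in WT. The list also holds NRF2 regulators, such as Nfe2l2, and NRF2 targets outside glutathione, such as Txn1, Prdx1 and Txnrd1. ENTERO-PRO was the highest type for 28 of those 63 and PANETH the lowest for 26. The matching shares over all genes were not computed, for the list or its parts. Secretory products took 59.9% and 57.5% of UMIs in WT PANETH, which lowers the CPM of other genes there. The list was not read with those products left out. The 10 highest genes by mean level over the WT types were Txn1, Gpx2, Prdx1, Gpx1, Txnrd1, Prdx6, Gpx4, Lap3, Nfe2l2 and Glrx3. Txn1 (thioredoxin) peaked in ENTERO-PRO at 2814 CPM, as did Prdx1 (1759), Gpx1 (1569), Prdx6 (499), Gpx4 (434) and Nfe2l2 (264), the gene of NRF2. Gpx2, the gastrointestinal glutathione peroxidase, and Txnrd1 peaked in EEC-PRE (1553 and 498 CPM), Lap3 in EC (258) and Glrx3 in ISC (164).

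Among the 20 other transferase genes with a UMI, 9 were highest in ENTERO-PRO, 4 in TUFT, 3 in EC and 0 in GOBLET. Named after their values were seen, the 3 leading TUFT genes were Alox5ap (877 CPM) and Ltc4s (524), relatives of the microsomal transferases that serve leukotriene synthesis, and the prostaglandin D synthase Hpgds (487). Gstt1, a theta class gene, was at 656 CPM in EC, a type in which no member had its highest level.

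Genotype comparisons called 0 of the listed genes over all kept cells (61 tested), in EC (37), in GOBLET (31), in GOBLET-PRE (49) or in the Paneth lineage (41). An unadjusted p under 0.05 was reached by 5 of the 61 over all kept cells, against 3.71% of all genes, by 6 of 37 in EC (8.39%) and by 7 of 41 in the Paneth lineage (14.8%). It was reached by 5 of 31 in GOBLET (11.2%) and 3 of 49 in GOBLET-PRE (7.95%). In the interaction it was reached by 11 of 48 (12.0%), and 1 of 48 was called (2.26%). The called gene was Anpep, the brush border aminopeptidase that trims glutathione breakdown products and 1 of the enterocyte markers summed above, for which the ratio of the Paneth to the goblet lineage fell in APC-KO (-1.46, SE 0.40, edgeR, adjusted p = 0.0338). The median interaction of the list was -0.04, beside 0.00 for all genes tested.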

How the data were processed

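Per the labels' protocols, TOM+ duodenal crypt cells were sorted and sequenced with 10x Genomics 3' v3.1 chemistry. Per the submitters' processing notes, the deposited UMI counts came from Cell Ranger 3.0.2 with STAR and mm10. The authors also deposited tables of the kept cells with the cell type, UMI counts and the percent of mitochondrial UMIs. Doublet treatment is not given in the sources used here, and no doublet caller was run.

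UMIs of the kept cells were summed per cell type and library. Sums with at least 20 cells in each library were tested with edgeR 4.0.16 (quasi-likelihood, TMM, filterByExpr, Benjamini-Hochberg at 0.05), tested on simulated data. PANETH and PANETH-PRE were summed because they had 16 and 11 cells in APC-KO replicate 1, and the alternatives that use them alone fall under this minimum. The alternatives were DESeq2 1.42.0 (size factors and Wald test), no filter, thinning to 2000 UMIs, free RNA subtraction, cell subsets, a replicate block and leaving out each library. Intervals are exact Poisson intervals at 95% and cover counting error only.

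The named genes were the 9 members, the 3 genes most like each in profile, and, of the glutathione list, those called in any fit and the 10 highest. Alox5ap, Ltc4s, Hpgds and Gstt1 of that list were named outside this rule. Members, lists and tests were chosen with earlier results of these data known. Positions are from GENCODE vM21 (GRCm38), which held 31011 of 31053 gene IDs, and promoters from RefSeq GRCm38.p6. Protein sequences were not used here. Python 3.11.15 and R 4.3.3 were used.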

Additional observations from a re-analysis of the deposited data

Results flagged for a closer look

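The genotype difference of Gsta4, Mgst2 and Mgst3 was not the same in the Paneth lineage as in the goblet lineage, by the edgeR interaction term. The Paneth lineage sum was chosen with earlier results of these data known. The log2 interaction, Paneth minus goblet, was 2.46 for Gsta1, 1.57 for Gsta4, 1.11 for Mgst2 and 1.30 for Mgst3. Gsta1 was chosen with its difference known.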

How the results depend on the processing

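The number of genes called depended on the setting. Over all kept cells it was 0, and became 23 with DESeq2's Wald test, 21 without the filter and 0 to 483 with a library left out (483 without APC-KO replicate 1). In EC it was 0, and became 13 with the Wald test, 174 without the filter, 5 with thinned cells and 0 to 405 with a library left out. In GOBLET it was 5, and became 79 without the filter, 3 with free RNA subtracted and 0 to 21 with a library left out. In GOBLET-PRE it was 1, and became 38 with the Wald test, 280 without the filter, 4 with thinned cells, 0 with free RNA subtracted and 7 to 64 with a library left out. In the Paneth lineage it was 57, and became 477 without the filter, 98 in PANETH alone, 124 with free RNA subtracted and 0 to 461 with a library left out (0 without WT replicate 1). The interaction called 232 genes, and 33 with the Wald test, 56 with thinned cells, 49 in PANETH against GOBLET, 91 in the precursors and 58 to 364 with a library left out. The Wald test gave no adjusted p for 6907 genes in EC and 7164 in the interaction.

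Of the 9 genes, 0 were called in each genotype comparison, and with a library left out 0 to 3 over all kept cells, 0 to 1 in EC, 0 to 1 in GOBLET-PRE and 0 to 3 in the Paneth lineage. Without the filter 2 were called in GOBLET-PRE, 1 in GOBLET and 2 in the Paneth lineage, where free RNA subtraction gave 2 and PANETH-PRE alone 1. For the interaction, PANETH against GOBLET gave 3 and free RNA subtraction 5. In the interaction 4 were called, 2 with thinned cells, 2 in the precursors and 1 to 4 with a library left out.

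The direction turned for the following log2 differences, none of them called in the main comparison, and the cause was not tested. Gstp1 in GOBLET was 0.0617 with the Wald test. In GOBLET-PRE, Gstm3 was -0.38 with thinned cells and -0.0376 with free RNA subtracted, and Mgst2 was -0.10 with thinned cells. In the Paneth lineage, Gstm1 was -0.23 and Gsto1 -0.32 in PANETH-PRE alone, and Gsto1 was -0.19 with thinned cells. In the interaction, Gstm1 was -0.22 in the precursors, and in PANETH against GOBLET Gsto1 was 1.22 and Mgst1 -0.11. With a library left out, the values over all kept cells ran from -1.22 to 0.12 for Gsta4, -0.76 to 2.11 for Gstp1, -0.0198 to 0.34 for Gsto1, -0.30 to 0.91 for Mgst1, -0.27 to 0.72 for Mgst2 and -1.12 to 0.15 for Mgst3. In EC they ran from -0.31 to 2.11 for Gstp1 and -0.91 to 0.52 for Mgst2, and in GOBLET from -0.40 to 0.46 for Gstm1 and -1.64 to 0.97 for Gstp1. In GOBLET-PRE they ran from -0.18 to 0.0034 for Gstm1, -0.98 to 2.07 for Gstp1, -0.23 to 0.38 for Mgst2 and -1.29 to 0.0636 for Mgst3. In the Paneth lineage they ran from -0.20 to 0.42 for Gstm1, -0.21 to 3.07 for Gstp1 and -0.0578 to 1.52 for Mgst3, and in the interaction from -0.16 to 0.56 for Gstm1 and -0.13 to 0.14 for Gsto1. Of 533 values of the 9 genes under an alternative, 461 kept direction and call. Most of these had no call to lose, since only 4 values, all in the interaction, were called in the main comparison. Those 4 lost their call in 16 of the values under an alternative.

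The labels give no pairing, and same-numbered libraries deviated with correlations of -0.39 over all kept cells and -0.06 to -0.01 elsewhere. A replicate block gave 4 calls over all kept cells (1 with crossed numbers, chosen after seeing the data), 110 in GOBLET-PRE, 73 in GOBLET, 124 in the Paneth lineage and 1 in the interaction, where it took the place of the library block. Of the 9 genes it called 0 in the interaction, and 1 in each of the Paneth lineage, GOBLET-PRE and GOBLET. APC-KO replicate 1, with the fewest cells, set the depth limit: 3 UMIs were 56.8 CPM in its TUFT cells, against 3.41 CPM in WT replicate 1. In SEC-PRO they were 117 CPM, against 0.987 CPM in WT replicate 1.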
